A study of Rattus norvegicus with 8 samples.

Results

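The genes for vasopressin (Avp), oxytocin (Oxt) and their receptors (Avpr1a, Avpr1b, Oxtr) were followed in the neural lobe of the rat pituitary at 2 ages. These 5 genes were looked up by symbol among 33294 listed genes, which gave 4 of them. The fifth, Avpr1b, was matched through its gene number: the row LOC100909648 carries the NCBI gene identifier that RefSeq gives to Avpr1b on the assembly GRCr8. Whether the annotation behind the counts, on another build, held the same gene model under that identifier was not checked here, and every Avpr1b value rests on this match. All libraries came from male Sprague Dawley rats, 4 at 35 days of age (labelled as the control) and 4 at 125 days, with no other treatment named. According to the labels the animals were perfused under anaesthesia before the lobe was frozen, and polyadenylated RNA was sequenced. Whether each numbered sample of an age is an animal of its own is not said, so the p-values describe variation among samples that may be technical. The study asked how gene expression in this tissue changes with age.

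Vasopressin and oxytocin are nonapeptides made as larger precursors in the cell bodies of magnocellular neurons of the hypothalamus. The precursors are packed into dense-core vesicles, cleaved on the way down the axon and released into blood from terminals in the neural lobe, vasopressin to retain water and raise blood pressure, oxytocin for milk ejection and labour. The lobe holds these axons, their glia (pituicytes) and fenestrated capillaries, but no magnocellular cell bodies, and messenger RNA for both precursors is known to travel into the axons. The receptors are G protein-coupled: V1a (Avpr1a) of vessels, liver and brain, V1b (Avpr1b) of pituitary corticotrophs and the oxytocin receptor (Oxtr) act through Gq and phospholipase C, and the V2 receptor of the kidney acts through Gs and cyclic AMP.

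Avp and Oxt are immediate neighbours in the RefSeq annotation, with no gene listed between them, and are transcribed towards each other from opposite strands. The 250 bases upstream of the annotated start are shown for the 3 members on which the results turn, 5′ to 3′ on the strand of the gene, from RefSeq on the assembly GRCr8, which is not the build of the deposited counts (rn7). All 5 members had an entry. The regions are chr3:138248523-138248772 on the minus strand for Avp, chr3:138235504-138235753 on the plus strand for Oxt and chr13:45598513-45598762 on the plus strand for Avpr1b. Capitals mark every match to the nuclear receptor half-site TGACC or its reverse complement GGTCA.
Avp: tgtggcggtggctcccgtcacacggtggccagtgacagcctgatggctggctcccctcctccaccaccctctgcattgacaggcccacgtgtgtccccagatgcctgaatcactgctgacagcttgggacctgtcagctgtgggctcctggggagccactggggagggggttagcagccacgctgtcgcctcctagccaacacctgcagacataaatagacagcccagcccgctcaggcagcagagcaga
Oxt: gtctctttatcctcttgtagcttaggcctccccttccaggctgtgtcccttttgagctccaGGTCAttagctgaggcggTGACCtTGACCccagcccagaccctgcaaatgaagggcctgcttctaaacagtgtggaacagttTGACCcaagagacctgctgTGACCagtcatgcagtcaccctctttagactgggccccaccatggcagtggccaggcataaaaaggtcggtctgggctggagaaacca
Avpr1b: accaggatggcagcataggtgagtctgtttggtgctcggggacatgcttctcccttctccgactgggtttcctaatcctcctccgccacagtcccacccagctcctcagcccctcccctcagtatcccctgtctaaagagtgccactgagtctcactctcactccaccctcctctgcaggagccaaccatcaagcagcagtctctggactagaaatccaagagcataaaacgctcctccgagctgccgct
The Oxt region held 5 half-site matches, the Oxtr region 2, and those of Avp, Avpr1a and Avpr1b held none. Of 33469 promoters of this length, 35.4% held at least 1 match on either strand and 0.0508% held 5 or more. The E-box CANNTG matched at 4 places in the Avp region and 1 place in the Oxt region, and 65.5% of promoters held at least 1 and 3.2% at least 4. The core of the cyclic AMP response element, TGACG or CGTCA, matched once in the Avp region and not in those of Oxt and Avpr1b (18.2% of promoters held at least 1). These are matches of letters in 1 window, and no binding was measured.

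Each library held between 28429133 and 58696254 recovered reads. Among the 17919 genes that passed the filter on low values, limma called 17.7% at a Benjamini-Hochberg adjusted p below 0.05, 8.85% higher and 8.87% lower at 125 days. Scaled by total reads, 37.0% of the calls were higher, against 49.9% with the deposited scaling. Anterior lobe markers (Gh1, Prl and others) varied widely among 35-day libraries. Their mean log2(value + 1) was 8.78, 11.84, 13.72 and 10.92 in replicates 1 to 4, against 7.17 to 9.27 at 125 days, and the 10 genes summed to between 24266 and 1394211 depth-normalized counts, against 6508 to 50156. Without 35-day replicate 3, the highest, 5395 genes were called in place of 3174, and without 35-day replicate 2 or 125-day replicate 1, 3 or 4 between 1860.0 and 2040.0. All 5 members passed the filter, and 2 of them, Oxt and Avpr1b, were called, both higher at 125 days.

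Avp did not pass the test. It was at 1979, 2670.2, 3036 and 2732 depth-normalized counts in 35-day replicates 1 to 4, and at 1369, 2919, 2616 and 2138 in those of 125 days. The ages overlapped, with the lowest library at 125 days and the highest at 35 days. The means were 2604 ± 446 and 2261 ± 676 (SD, n = 4), a log2 change from 35 to 125 days of -0.24 (SE 0.22, limma adjusted p = 0.502). The 95% interval of that change, -0.74 to 0.26, covered ratios between 0.598 and 1.20. The size of the change rested on single libraries: it was -0.020 without 125-day replicate 1, -0.38 without 125-day replicate 2 and -0.37 without 35-day replicate 1. It was -0.10 with the anterior lobe markers and -0.056 with the corticotroph and melanotroph markers in the fit. Between 1348 and 4840 reads per library lay behind these values.

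Oxt was higher at 125 days, at 2152, 2320 and 2079 depth-normalized counts in 35-day replicates 1, 2 and 4 and 3293 in replicate 3, against 2966, 5895, 4257 and 4473 in 125-day replicates 1 to 4. All but 1 of the 125-day libraries lay above every 35-day library, the exception being replicate 1, which was below 35-day replicate 3. The mean rose from 2461 ± 564 to 4398 ± 1199 (SD, n = 4), a log2 change of 0.82 (SE 0.21, 95% interval 0.35 to 1.29, limma adjusted p = 0.0235). That call was close to the threshold: the adjusted p was 0.0515 to 0.0684 on leaving out 35-day replicate 1, 2 or 4 or 125-day replicate 2, 3 or 4, and 0.0519 (log2 change 0.94) when the fit included the anterior lobe marker level. Without 35-day replicate 3 the log2 change was 0.97 and the adjusted p 0.00390. Here, as in all results from whole tissue, fewer cells or axons of a kind and less RNA in each cannot be told apart.

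**Figure D1:**
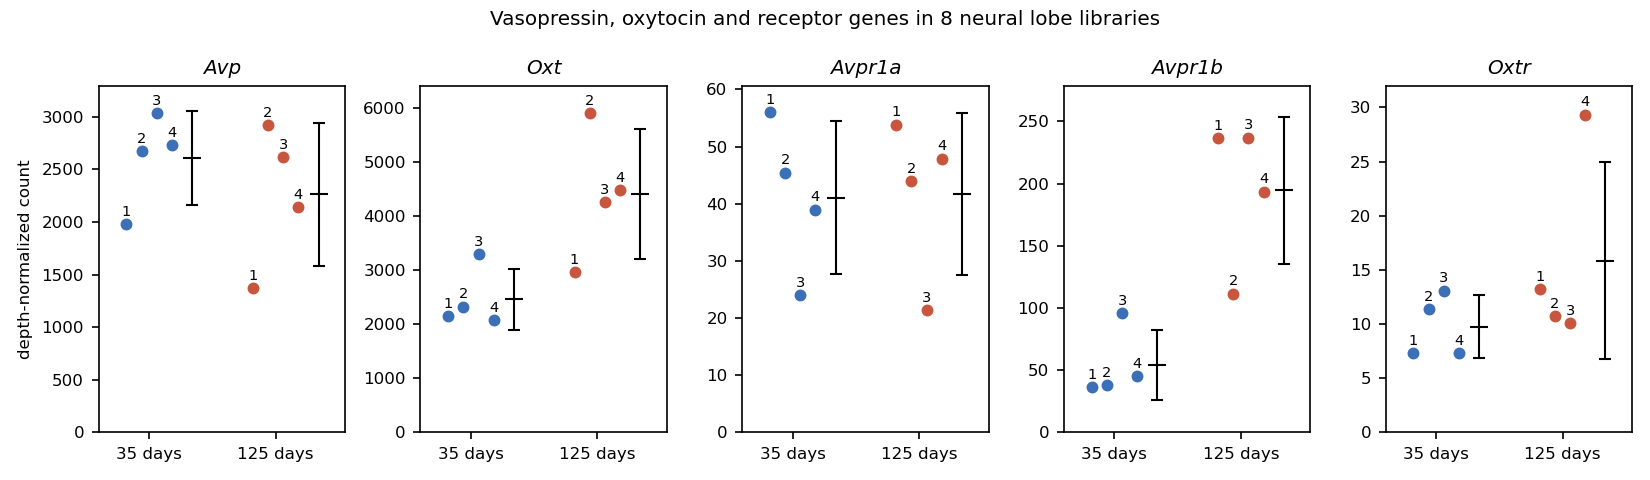
Depth-normalized counts of the 5 genes (y axis, from 0, a separate scale in each panel) at 35 and 125 days. Points are libraries, labelled with their replicate number, and bars are the mean ± SD of 4. Avpr1b lay higher in every 125-day library. Oxt lay higher at 125 days except in replicate 1, which was below 35-day replicate 3. Avp and Avpr1a overlapped, and 1 library of 125 days (29.3) lay above all others for Oxtr.

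Within an age, both hormone genes were highest in the same library, replicate 3 at 35 days and replicate 2 at 125 days, and at 125 days both were lowest in replicate 1. The ratio of both within a library was compared next. The Oxt count per Avp count was 1.09, 0.869, 1.08 and 0.761 at 35 days and 2.17, 2.02, 1.63 and 2.09 at 125 days. No 125-day library came near the 35-day range. The log2 ratio rose by 1.06, from -0.09 ± 0.25 to 0.97 ± 0.19 (SD, n = 4), with an exact two-sided permutation p of 0.0286, the smallest that 4 against 4 allows (0.0286 after adjustment over the 4 ratios examined). Without 35-day replicate 1 the log2 difference was 1.13 and the exact adjusted p 0.0571, an adjustment into which the p-values of the other ratios also enter. The counts are not per transcript length, so the ratio shows a change between ages and not which messenger was more abundant. Avp and Oxt share a nearly identical middle exon, and how reads from it were counted is not given in the sources used here.

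Pdyn encodes prodynorphin, an opioid precursor made in vasopressin neurons, and it rose by a log2 change of 2.35 (SE 0.11, limma adjusted p = 3.15e-06). It was at 1155 to 1415 depth-normalized counts at 35 days and 5487 to 6842 at 125 days. The Pdyn count per Avp count ran from 0.433 to 0.592 at 35 days and from 1.88 to 5.0 at 125 days, a log2 difference of 2.59 (exact permutation p = 0.0286, adjusted 0.0286). Per Oxt count it ran from 0.399 to 0.681 and from 0.931 to 2.31, a log2 difference of 1.53 (exact permutation p = 0.0286, adjusted 0.0286). Neither ratio overlapped between ages. Like the other ratios examined, both were chosen with earlier results of these data known, and the rise of Pdyn itself enters each p. The exact adjusted p was 0.0571 for the first without 35-day replicate 1, and for the second without 35-day replicate 1, 2 or 3.

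**Figure D2:**
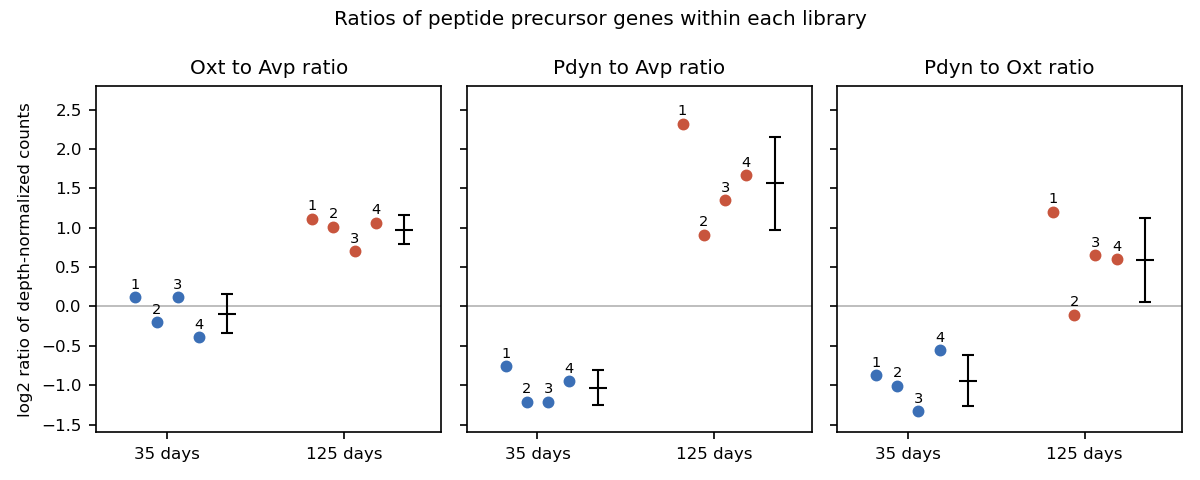
Log2 ratios of depth-normalized counts of 2 genes within each library (y axis, shared) at 35 and 125 days; points are libraries with their replicate number, bars the mean ± SD of 4. The Oxt to Avp ratio lay around 0 at 35 days and between 0.70 and 1.12 at 125 days, and both Pdyn ratios separated the ages as well.

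Markers of neuronal cell bodies did not move as 1 group beside these genes: of 10 listed, 6 were tested, of which Rbfox3 was higher and Slc17a6 lower, and the summed level ran from 11485 to 24244 at 35 days and from 17903 to 20982 at 125 days. Their mean log2(value + 1) was 5.58 at 35 days and 5.42 at 125 days, so the sum does not describe each gene (exact permutation p = 0.171, adjusted 0.171 over 6 marker lists). Among the markers too low to test, Sim1, a transcription factor gene of the hypothalamic nuclei that make both hormones, was at 1.09 to 7.34 depth-normalized counts at 35 days and 2.03 to 4.89 at 125 days. Otp, another such gene, was at 1.09 to 3.10 and 0 to 13.7. Of all genes tested, 8.85% were higher and 8.87% lower. Pituicyte, endothelial and mural cell markers were lower at 125 days in 3, 8 and 7 of 10, and 1 mural cell marker (Myh11) was higher. Summed, they ran from 73543 to 126382 and from 58223 to 87222 for pituicytes, from 21743 to 27465 and from 11562 to 22115 for endothelium, and from 10684 to 16869.8 and from 10100.1 to 13792 for mural cells. The mean level of each of these 3 lists was lower in every 125-day library than in all 35-day libraries (exact permutation p = 0.0286, adjusted 0.0571 over 6 marker lists). At 125 days replicate 2, the library with the most Avp and Oxt, also had the highest mean level of these 3 lists. The 35-day libraries went another way: replicate 3, with the most Avp and Oxt of that age, had the lowest pituicyte (12.35) and mural cell (9.61) levels. Its endothelial level was 10.65, within the 35-day range of 10.53 to 10.79. The part of these 3 lists in the hormone results was not tested.

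Among the receptors, Avpr1a, the V1a receptor gene of vessels and brain, did not pass the test. It was at 56.0, 45.5, 24.0 and 38.9 depth-normalized counts at 35 days and at 53.8, 44.0, 21.4 and 47.9 at 125 days. Replicate 3 was the lowest library of each age, and the ages overlapped throughout. Means were 41.1 ± 13.4 and 41.8 ± 14.2 (SD, n = 4), a log2 change of 0.01 (SE 0.34, 95% interval -0.75 to 0.77, limma adjusted p = 0.989). With 17 to 69 reads per library, ratios between 0.593 and 1.71 lay inside that interval.

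Avpr1b, the V1b receptor gene through which vasopressin drives release of corticotropin, rose the most of the 5. It was at 36.5, 38.2 and 45.2 depth-normalized counts in 35-day replicates 1, 2 and 4 and at 95.9 in replicate 3, and at 237, 111, 237 and 194 in 125-day replicates 1 to 4. Every 125-day library was above every 35-day library, a pattern of 13.4% of the genes tested. The mean rose from 54.0 ± 28.2 to 195 ± 59.1 (SD, n = 4), a log2 change of 1.89 (SE 0.34, 95% interval 1.13 to 2.65, limma adjusted p = 0.00466). The reads behind it numbered 235 at 35 days and 733 at 125 days. The call held on leaving out each of the 8 libraries in turn, at log2 changes of 1.74 to 2.20.

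Genes of pituitary corticotrophs, which carry this receptor, and of melanotrophs were read in the same libraries. Crhr1, the receptor gene for corticotropin-releasing hormone, rose from 356 ± 121 to 1213 ± 242 (SD, n = 4), a log2 change of 1.80 (SE 0.23, limma adjusted p = 7.17e-04). Pomc, the corticotropin and melanotropin precursor gene, had means of 2544110 ± 798474 and 4556619 ± 767479 (log2 change 0.87, SE 0.57, limma adjusted p = 0.333). Other tests called Pomc higher: the adjusted p was 0.0478 with edgeR, 0.00127 with DESeq2 and 0.0286 with limma without the intensity trend (SE 0.22). Replicate 3 was the highest 35-day library and replicate 2 the lowest 125-day library for Avpr1b and Crhr1, and this held for Pomc as well. Of the 5 corticotroph and melanotroph markers Crhr1 rose and Neurod1 fell, and their summed level, nearly all Pomc, ran from 1976029 to 3738073 at 35 days and from 3572287 to 5293772 at 125 days. Anterior lobe markers were lower at 125 days in 4 of 10. Among all genes tested, 8.85% were higher and 8.87% lower. The mean level of the anterior lobe list differed by -2.66 (exact permutation p = 0.114, adjusted 0.137 over 6 marker lists).

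Avpr1b rose relative to Pomc too, but its log2 change (1.89, SE 0.34) was near that of Crhr1 (1.80, SE 0.23). Its ratio to Crhr1 was not tested. Per 1000000 Pomc counts there were 16.2, 19.5, 25.7 and 20.1 Avpr1b counts at 35 days and 47.1, 31.3, 54.2 and 36.7 at 125 days, with no overlap. The log2 ratio differed by 1.02 (exact permutation p = 0.0286, adjusted 0.0286). Without 35-day replicate 1 it differed by 0.92 and the exact adjusted p was 0.0571. With the mean level of the 5 corticotroph and melanotroph markers as a covariate the log2 change of Avpr1b was 1.19 (SE 0.24, limma adjusted p = 0.0143). With the anterior lobe covariate it was 2.68 (SE 0.31, limma adjusted p = 7.01e-04). Which cells of the dissected lobe the Avpr1b reads came from was not tested.

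**Figure D3:**
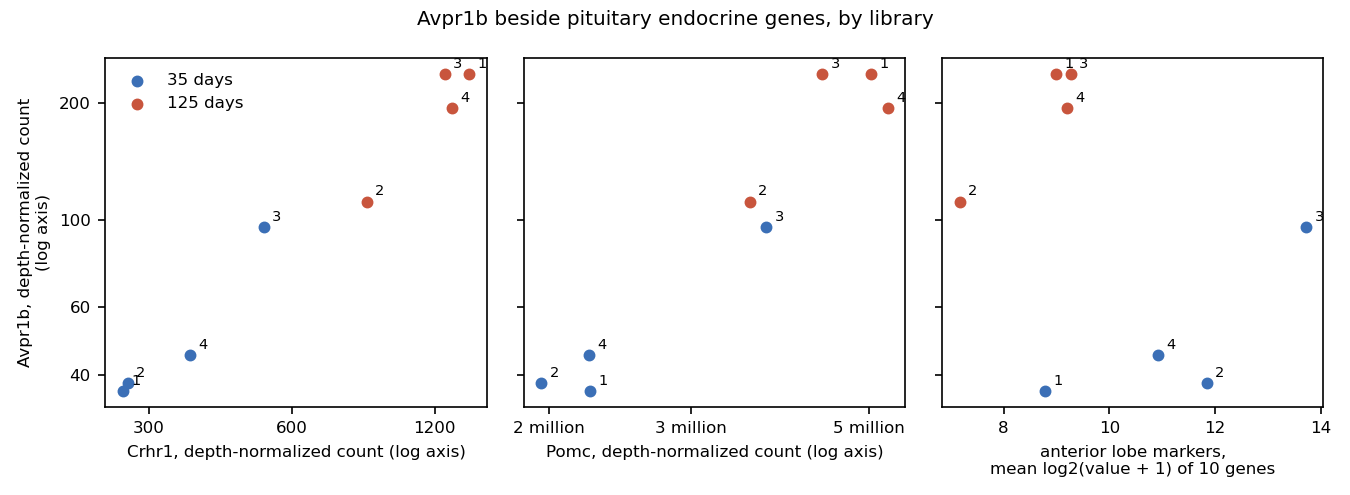
Depth-normalized count of Avpr1b (y axis, log) against Crhr1 (log), Pomc (log) and the mean log2(value + 1) of 10 anterior lobe markers, 1 point per library with its replicate number. The 125-day libraries lie high on the Crhr1 and Avpr1b axes, and 35-day replicate 3 (95.9) lies between the ages on both and far right on the anterior lobe axis.

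Oxtr, the oxytocin receptor gene, was near the lower limit of what these libraries measure, with 6 to 30 reads in each. It was at 7.30, 11.4, 13.1 and 7.34 depth-normalized counts at 35 days and at 13.2, 10.8, 10.1 and 29.3 at 125 days. Apart from 125-day replicate 4, the highest of all, the 125-day libraries lay within or at the upper edge of the 35-day range. The log2 change was 0.55 (SE 0.38, 95% interval -0.30 to 1.41, limma adjusted p = 0.361), and 0.23 without that replicate (limma adjusted p = 0.728). The V2 receptor gene Avpr2 reached a value of 10 in 2 of the 8 libraries and was not tested. Its values ran from 0 to 13.5 at 35 days and from 4.89 to 12.6 at 125 days.

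Around the 5 genes, 75 genes of peptide processing, shared neurons, gene regulation, receptor signalling and peptide breakdown were listed. Of these, 68 were tested, 14 were higher (20.6%, against 8.85% of all genes tested), 5 were lower (7.35%, against 8.87%, so near that of all genes) and 49 did not pass. Their median log2 change was 0.11, against 0.01 over all genes tested. The lists were chosen with earlier results of these data known, so these shares and those below describe the lists and are no independent support.

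Among 12 processing and carrier genes, 3 were higher (25.0%, against 8.85% of all genes tested; median log2 change 0.29). Pcsk1, a convertase that cuts prohormones in secretory vesicles, rose from 3771 ± 756 to 11043 ± 1259 (log2 change 1.57, SE 0.15). Its partner convertase Pcsk2 rose 0.79 (SE 0.19) and the granin gene Chgb 1.25 (SE 0.29). The granin genes Chga, Scg2 and Scg3 did not rise with Chgb. Their log2 changes were -0.77 (SE 0.40), -0.23 (SE 0.32) and -0.02 (SE 0.18), with limma adjusted p-values of 0.216, 0.669 and 0.958. The log2 changes of Cpe, which trims the cut ends, and Pam, which amidates both peptides, were 0.38 (SE 0.17, limma adjusted p = 0.150) and 0.25 (SE 0.11, limma adjusted p = 0.154). Leaving out 125-day replicate 4 ended the Chgb call (limma adjusted p = 0.0523), and leaving out 125-day replicate 1 or 4 that of Pcsk2 (limma adjusted p = 0.0647 and 0.0609). With the corticotroph and melanotroph covariate Chgb was at 0.75 (limma adjusted p = 0.0817) and with the anterior lobe covariate at 1.97, and with the anterior lobe covariate Pcsk2 was at 0.50 (limma adjusted p = 0.177).

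Of 10 peptides and enzymes known from the same neurons, 7 were tested and 4 were higher (57.1%, against 8.85% of all genes tested; median 0.86). Besides Pdyn (log2 change 2.35, SE 0.11), these were Penk, the proenkephalin gene (0.92, SE 0.25), Adcyap1, encoding the peptide PACAP (1.19, SE 0.32), and Th, encoding the rate-limiting enzyme of catecholamine synthesis (0.86, SE 0.24). Only Pdyn kept its call on leaving out each library. The Penk call was lost without 35-day replicate 1, 2 or 4 or 125-day replicate 2, 3 or 4 (limma adjusted p = 0.0561 to 0.0878). That of Adcyap1 was lost without 35-day replicate 1 or 4 or 125-day replicate 1, 2 or 4 (0.0521 to 0.101), and that of Th without 35-day replicate 1 or 2 or 125-day replicate 1, 2 or 3 (0.0692 to 0.106). With the corticotroph and melanotroph covariate the limma adjusted p was 0.141 for Adcyap1, 0.0653 for Penk and 0.0695 for Th, and with the anterior lobe covariate that of Th was 0.219. Total read scaling (limma adjusted p = 0.0557) and the lack of a filter (0.0754) also ended the Th call. That of Adcyap1 was lost with no filter (limma adjusted p = 0.0510) and that of Penk with no trend (0.0536). Adcyap1 and Th were low genes, at 13.3 ± 4.12 and 15.6 ± 2.62 at 35 days and 31.3 ± 8.82 and 29.3 ± 5.43 at 125 days. Cartpt, a peptide gene of oxytocin neurons, had a log2 change of -1.72 (SE 0.58, limma adjusted p = 0.0686). It was lower in every 125-day library (151 to 223) than in all 35-day libraries (257 to 1852). Gal and Nos1, the others tested, had log2 changes of -0.96 (SE 0.54, limma adjusted p = 0.257) and 0.05 (SE 0.40, limma adjusted p = 0.954). Crh, Cck and Trh were too low to test. From which cells the reads of the tested genes of this list came was not tested.

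Genes known as regulators of the hormone genes were higher in 4 of 10 tested (40%, against 8.85% of all genes tested; median 0.22). Sim1 and Otp, of the same list, were too low to test, and the lobe holds no magnocellular cell bodies. Which cells these reads came from, and whether these genes acted on Avp or Oxt, was not tested. Arnt2, which pairs with Sim1 in the development of these neurons, rose 0.73 (SE 0.12) and Crem, of the cyclic AMP response, 1.13 (SE 0.20). The immediate early genes Fos (2.08, SE 0.61) and Atf3 (0.91, SE 0.22) rose as well. Both of these calls depended on single libraries: Fos was not called without 35-day replicate 1 or 4 or 125-day replicate 1, 3 or 4 (limma adjusted p = 0.0684 to 0.113), and Atf3 was not called without replicate 1 of either age, 35-day replicate 2 or 125-day replicate 3 or 4 (0.0507 to 0.0620). With the corticotroph and melanotroph covariate the log2 change of Fos was 1.20 (limma adjusted p = 0.220) and that of Atf3 0.60 (limma adjusted p = 0.110), and with the anterior lobe covariate that of Fos was 3.77. Without the trend Fos was not called (limma adjusted p = 0.0671). Creb3l1, a transcription factor gene that acts on Avp, was at 532 ± 160 and 567 ± 135 (log2 change 0.12, SE 0.23, limma adjusted p = 0.772).

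Of 16 genes downstream of the Gq-coupled receptors 2 were higher (median 0.20), a share of 12.5% that is near the 8.85% of all genes tested. Itpr1, the calcium channel opened by inositol trisphosphate, rose from 5418 ± 1437 to 9534 ± 468 (log2 change 0.86, SE 0.19), and Prkcb, a protein kinase C gene, rose 0.64 (SE 0.16). Gnaq, Gq itself, was at 7479 ± 700 and 7925 ± 174 (log2 change 0.09, SE 0.09, limma adjusted p = 0.557). Prkcb lost its call when any 1 of the 125-day libraries was left out (limma adjusted p = 0.0544 to 0.0588) and with total read scaling (0.0543), and with the anterior lobe covariate the log2 changes were 0.47 for Itpr1 (limma adjusted p = 0.133) and 0.27 for Prkcb (limma adjusted p = 0.248).

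Of the 7 tested Gs and water channel genes 2 were lower (28.6%, against 8.87% of all genes tested; median -0.04): Aqp4, the water channel of glial membranes, by 1.22 (SE 0.22), beside the lower pituicyte markers given above, a list to which it also belongs, and the adenylyl cyclase gene Adcy3 by 0.49 (SE 0.13). Of 9 genes of receptor desensitisation 1 was higher and 1 lower (11.1% each, near the share of all genes tested; median 0.19): Grk3, a kinase that marks active receptors for arrestin, rose 0.78 (SE 0.14), and Rgs5, also a mural cell marker, fell by 1.10 (SE 0.29). Of 7 peptidase genes 2 were lower (28.6%, against 8.87% of all genes tested; median -0.23), Enpep by 0.69 (SE 0.16) and Prcp by 0.40 (SE 0.12, limma adjusted p = 0.0491). The Prcp call was also lost with TMM scaling (limma adjusted p = 0.0535), with no filter (0.0593), with a mean of at least 50 (0.0505) and with no trend (0.0771). Lnpep, the membrane aminopeptidase that degrades both hormones, was at 4082 ± 858 and 4345 ± 528 (log2 change 0.11, SE 0.17, limma adjusted p = 0.695). Of these calls Aqp4 and Grk3 held on leaving out each library. Those of Adcy3, Rgs5 and Prcp were lost without 35-day replicate 1 or 2 or 4 or 125-day replicate 1 or 3, Rgs5 and Prcp also without 125-day replicate 4 (limma adjusted p = 0.0573 to 0.0791, 0.0658 to 0.0825 and 0.0682 to 0.142). The Enpep call was lost without 35-day replicate 2 or 125-day replicate 1 or 3 (0.0519 to 0.0579). With the corticotroph and melanotroph covariate the log2 changes were -0.79 for Aqp4, which kept its call, and -0.54 for Rgs5, -0.37 for Adcy3, -0.59 for Enpep and -0.18 for Prcp, with limma adjusted p-values of 0.139, 0.124, 0.0854 and 0.254. With the anterior lobe covariate they were -1.78 for Rgs5, -0.63 for Prcp, -0.61 for Enpep (limma adjusted p = 0.0971) and 0.54 for Grk3 (limma adjusted p = 0.0575).

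**Figure D4:**
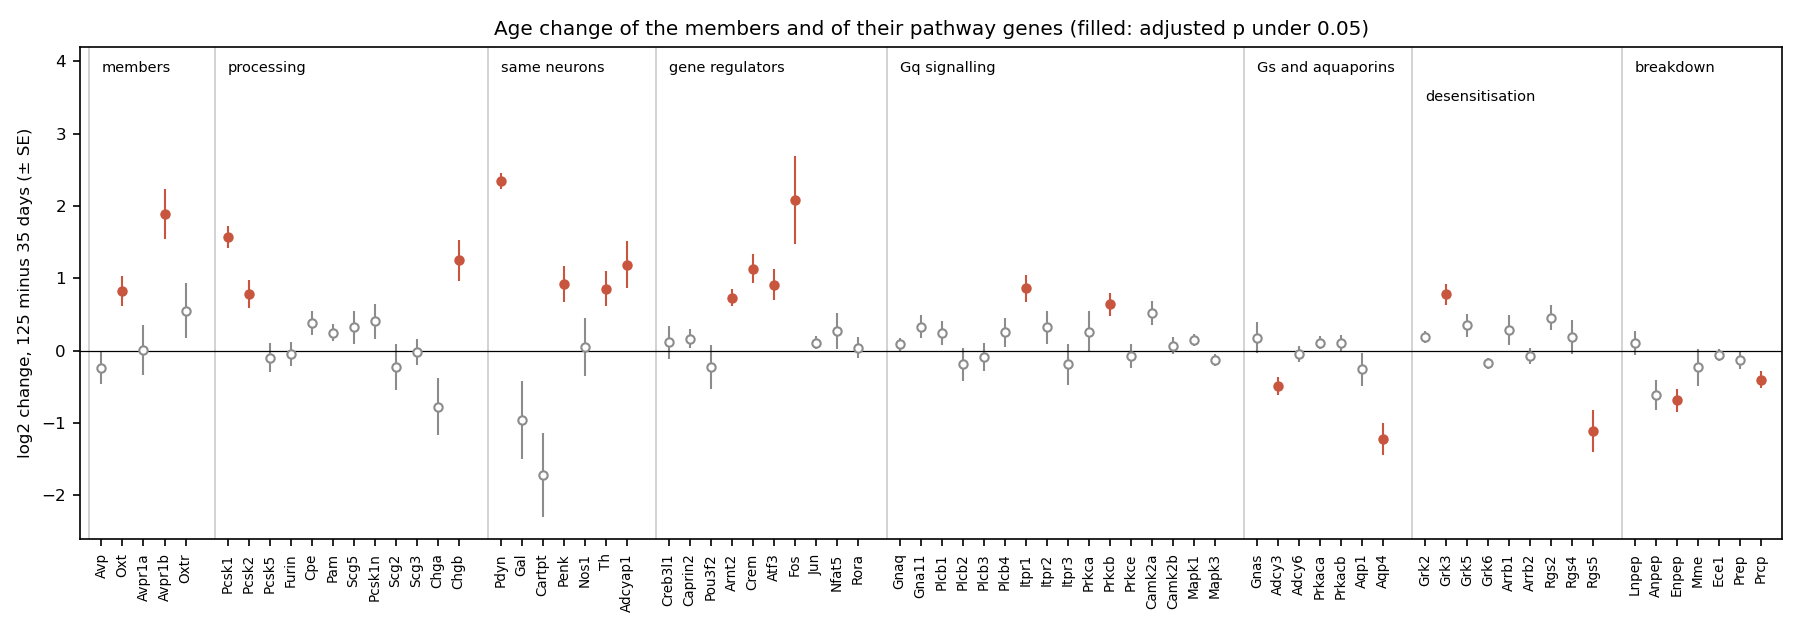
Log2 change from 35 to 125 days (y axis, points ± SE) of the 5 members and the 68 tested pathway genes, grouped by list. Filled red points passed a limma adjusted p of 0.05. Pdyn (2.35), Fos (2.08), Avpr1b (1.89) and Pcsk1 (1.57) are the highest of those that passed, and Aqp4 (-1.22) is the lowest.

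Likeness of pattern was measured as Pearson's r of log2(value + 1) over the 8 libraries, among 12809 named genes with a mean of at least 100, and is given as a description of these libraries, whose depth and marker levels also differ and enter every r. Oxt was most like Penk (r = 0.97), Haus5 (0.97) and Ppm1m (0.96). Avpr1b was most like Morn4, Dpysl2 and Cldn7 (0.993 to 0.996). For Avp the highest were Gas1 (0.94), P2rx4 and Ppp1r18 (0.93 each), for Avpr1a Ntsr2 (0.95), Zdhhc17 (0.93) and Polr2b (0.89), and for Oxtr Dpf2 and Nefh (0.94 each) and Irf2bp2 (0.93). Several of these rested on the scaling or on 1 library. For Oxtr, r with Dpf2 was 0.35 with total read scaling and 0.79 without 125-day replicate 4, and r with Nefh was 0.82 without it. For Avp, r was 0.78 with P2rx4 and 0.80 with Ppp1r18 without 125-day replicate 1, and for Avpr1a it was 0.82 with Zdhhc17 and 0.75 with Polr2b with total read scaling. After each age mean was subtracted, the leading genes differed except for Ntsr2 beside Avpr1a (0.96, then Anxa11 and Ttc21b, 0.95 each). They were Arhgdib, Hrct1 and Alox5ap for Oxt (0.98 to 0.99), Trdmt1, Prkcd and Gna15 for Avp (0.96 to 0.97), Krtcap3, Bmerb1 and Gpha2 for Avpr1b (0.99 each to 2 decimals), and Prlhr, Sts and Ppp2r5a for Oxtr (0.95 each, but 0.84 for Sts and 0.60 for Ppp2r5a with total read scaling, and 0.81 for Ppp2r5a without 125-day replicate 4).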

How the data were processed

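Gene expression was measured by RNA-seq of poly(A)-selected neural lobe RNA in 8 libraries, grouped by age from the sample titles. The deposited values are a signal on a depth-normalized scale. The values themselves show that the authors scaled whole read counts by 1 factor for each library, because 100% came out as whole multiples of what 1 read is worth (tolerance 0.001 reads). Per the submitters' processing notes, Trimmomatic 0.39, HISAT2 2.2.1, SAMtools 1.13, featureCounts (Subread 2.0.1), DESeq2 1.34.0 and build rn7 were used, with no roles given. For strand, annotation and multi-mapping, settings were not given in the sources used here, so overlapping or near-identical sequence cannot be told apart.

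Reads were recovered as those multiples. Both columns of age means that the authors deposited were left aside. The main test was limma 3.58.1 (R 4.3.3) on log2(value + 1), its variance prior following mean intensity, with age as the only term and 17919 genes, those reaching 10 in 4 or more libraries, two-sided, adjusted over all genes tested. Fold changes of weakly expressed genes come out too small on this scale. Ratios of 2 genes and marker levels (mean log2(value + 1) per library) were tested by exact permutation (two-sided, 70 arrangements), adjusted over 4 ratios or 6 lists. Alternatives were other pseudocounts (0.5 and 5), filters and scalings, edgeR 4.0.16 and DESeq2 1.42.0 on recovered reads (3170 and 4196 genes called), library weights, no trend, the replicate number as a block, 2 marker levels as covariates and each library left out. The test was also run on simulated counts, drawn with the same spread parameter for every gene and with no library set apart. That run does not show how the calls here depend on single libraries.

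The members, lists and ratios were chosen with earlier results of these data known. Genes were named by a rule: the 5 members, up to 4 called genes with the lowest adjusted p per pathway list, Avpr2, Lnpep, Pdyn and Creb3l1, and the 3 genes most like each member, with and without the age means. Pomc, Crhr1, Sim1, Otp, Cpe, Pam, Chga, Scg2, Scg3, Gnaq, Cartpt, Gal and Nos1 are named outside it, after their values were seen. Of 131 listed genes 130 were matched by symbol and Avpr1b by gene identifier. Figures were drawn with matplotlib 3.10.9.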

Additional observations from a re-analysis of the deposited data

Results flagged for a closer look

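In each age group of 4, a library was noted where its gap to the nearest other was too large a share of the group's range by Dixon's 95% limit. This was so in 11 of 78 groups examined, where chance gives about 1 in 20, and 7 of the 11 were 35-day groups.

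Of the members, 2 were among them. Avpr1b was at 95.9 in 35-day replicate 3, against 36.5 to 45.2 in the other libraries of that age. Oxtr was at 29.3 in 125-day replicate 4, against 10.1 to 13.2.

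At 35 days replicate 3 also stood apart for Pomc (3724079, against 1957148 to 2248920.3), Pcsk2 (12949, against 21432 to 22669), Aqp4 (2580.4, against 4483 to 4673), Rgs5 (1694, against 3670.5 to 4074) and Lnpep (2804, against 4383 to 4627). Crem was low in 35-day replicate 4 (1907, against 3330.1 to 3579). Among 125-day libraries, replicate 2 was low for Pdyn (5487, against 6667 to 6842) and for the anterior lobe marker level (7.17, against 8.99 to 9.27) and high for Prkcb (7321, against 6144 to 6226).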

How the results depend on the processing

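Avpr1b kept its call under every alternative run, at log2 changes from 1.19 to 2.68. Avp, Avpr1a and Oxtr passed the threshold under none of those run for them, and with a mean of at least 50 required Avpr1a and Oxtr were not tested. Oxt lost its call with the anterior lobe covariate (0.94, adjusted p = 0.0519), and leaving out 1 library gave 0.67 to 0.996. Leaving out 1 library gave log2 differences of 0.96 to 1.15 for the Oxt to Avp ratio, 2.34 to 2.81 for Pdyn to Avp, 1.32 to 1.76 for Pdyn to Oxt and 0.89 to 1.15 for Avpr1b to Pomc. The Avpr1a change, 0.01, turned negative with total read scaling (-0.054), library weights (-0.25) and the anterior lobe covariate (-0.55), and ran from -0.22 to 0.29 with 1 library left out. Lnpep turned negative with library weights (-0.068), with the anterior lobe covariate (-0.23) and without 35-day replicate 3 (-0.061, the others up to 0.18). Creb3l1 did so with the corticotroph and melanotroph covariate (-0.17), without 35-day replicate 1 (-0.082, the others up to 0.29) and without 125-day replicate 4 (-0.035). The number of genes called was 3174, 7892 with library weights and 1860.0 to 5395 with 1 library left out (5395 without 35-day replicate 3, 2040.0 or fewer without 35-day replicate 2 or 125-day replicate 1, 3 or 4). The causes were not tested.

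Same-numbered libraries of the 2 ages did not deviate together (correlations over genes of 0.04, 0.17, -0.00 and -0.12 for replicates 1 to 4, and only 35-day replicate 2 correlated best with its own number), so the numbers were not taken as pairs. With the replicate block 2718 genes were called, Oxt and Avpr1b among them, and Adcyap1, Th, Fos and Prcp were not. The 4 ratios, with paired differences of 1.06, 2.59, 1.53 and 1.02, had a sign-flip p of 0.125, the smallest that 4 pairs allow. Of 20 named genes called besides the members, 6 kept their call under every alternative. Oxtr rests on 42 reads at 35 days and 62 at 125 days, so a change of the size of that of Oxt lies inside its interval.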
